A study of Homo sapiens with 12 samples.

Results

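The 55 genes described here encode proteins of mitosis, the kinetochore and cytokinesis. They are the rows of the normalised count table that carry one of 56 symbols listed for this purpose, 1 of which (SPC24, an outer kinetochore subunit) has no row, and they stand among 12616 genes in all. SGOL1 is the older symbol of SGO1, a protector of centromeric cohesion. RNA was measured in MeWo and SkMel28, human cutaneous melanoma cell lines in which doxycycline (Dox) switches on a short hairpin RNA that targets MITF, the lineage transcription factor of melanocytes. Cells received 0 or 1 µg/ml Dox for 8 days, giving 4 groups of 3 libraries: MeWo control, MeWo Dox, SkMel28 control and SkMel28 Dox. Every group carried the hairpin, and no line was given Dox without it, so that effects of the drug and of the hairpin cannot be told apart. The sources differ on the medium, as the labels give EMEM for MeWo and RPMI for SkMel28 while the methods of the study name RPMI for both lines. If the labels hold, line and medium cannot be told apart either. The labels do not say whether a line is 1 clone or whether the replicates were independent experiments, and p-values measure the spread between these libraries, which may be technical.

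A cell enters mitosis when cyclin B binds and activates the kinase CDK1, after which polo-like and Aurora kinases, kinesin motors and the kinetochores build the spindle and attach the chromosomes. The spindle checkpoint holds the anaphase-promoting complex until every chromosome is attached, and cytokinesis then divides the cell. Most of these genes are transcribed in a wave in G2 and mitosis, when repression by the DREAM complex is lifted and MuvB, B-MYB and FOXM1 activate promoters that often carry a CHR element and CCAAT boxes, and their RNA in a culture is therefore widely read as a mark of dividing cells. In melanoma MITF has been linked to proliferation. In bulk RNA, fewer dividing cells and less RNA of these genes per cell cannot be told apart.

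The promoters of a few members are printed because the members share these sequence features, which the choice of the genes did not use. The windows run from 250 bases before to 50 bases after the start in RefSeq (GRCh38.p14), 300 bases in all, and 48 of the 55 members matched a window (the first listed where a gene had several, as 8 did), while 7 did not. Capitals mark the letters of the CHR (TTTGAA, which reads as TTCAAA on the other strand, or else TTCGAA) and of the CCAAT box (CCAAT, or ATTGG on the other strand). PLK1, CCNB2 and PRC1 carry CHR letters within 60 bases before the start with CCAAT letters upstream, in MKI67 one CHR and one ATTGG share a base, CIT has CHR letters on both sides of its start, AURKB carries ATTGG but no CHR letters, and CDC25B carries neither.
PLK1, chr16:23678639-23678938, plus strand: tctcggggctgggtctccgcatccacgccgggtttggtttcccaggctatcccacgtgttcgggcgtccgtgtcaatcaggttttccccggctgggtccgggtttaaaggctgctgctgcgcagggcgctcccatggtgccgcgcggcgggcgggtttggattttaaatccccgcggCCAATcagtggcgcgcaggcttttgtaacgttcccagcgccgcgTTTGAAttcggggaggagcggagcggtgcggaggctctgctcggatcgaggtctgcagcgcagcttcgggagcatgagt
CCNB2, chr15:59104896-59105195, plus strand: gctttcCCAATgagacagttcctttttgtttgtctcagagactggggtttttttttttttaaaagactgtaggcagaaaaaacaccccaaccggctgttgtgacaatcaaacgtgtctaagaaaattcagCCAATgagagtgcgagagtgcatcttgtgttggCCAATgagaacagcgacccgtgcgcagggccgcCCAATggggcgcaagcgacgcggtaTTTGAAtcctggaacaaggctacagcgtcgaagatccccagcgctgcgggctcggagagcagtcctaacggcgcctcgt
PRC1, chr15:90994486-90994785, minus strand: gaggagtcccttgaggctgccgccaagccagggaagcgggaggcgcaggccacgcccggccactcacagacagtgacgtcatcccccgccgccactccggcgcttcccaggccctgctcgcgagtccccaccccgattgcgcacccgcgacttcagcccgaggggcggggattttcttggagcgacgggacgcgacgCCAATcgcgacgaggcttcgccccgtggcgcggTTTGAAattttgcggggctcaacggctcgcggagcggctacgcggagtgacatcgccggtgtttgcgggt
MKI67, chr10:128126374-128126673, minus strand: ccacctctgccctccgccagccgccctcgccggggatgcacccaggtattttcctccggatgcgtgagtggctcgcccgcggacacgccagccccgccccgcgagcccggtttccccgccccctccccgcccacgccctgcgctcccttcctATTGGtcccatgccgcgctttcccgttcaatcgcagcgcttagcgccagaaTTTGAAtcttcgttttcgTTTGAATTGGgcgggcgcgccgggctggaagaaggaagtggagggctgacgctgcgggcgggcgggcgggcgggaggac
CIT, chr12:119877271-119877570, minus strand: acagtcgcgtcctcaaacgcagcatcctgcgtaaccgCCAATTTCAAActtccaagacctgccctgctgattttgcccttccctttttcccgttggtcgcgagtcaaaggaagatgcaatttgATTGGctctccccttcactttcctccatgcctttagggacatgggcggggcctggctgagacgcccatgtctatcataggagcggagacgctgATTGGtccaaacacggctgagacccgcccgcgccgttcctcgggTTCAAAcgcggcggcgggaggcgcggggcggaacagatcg
AURKB, chr17:8210176-8210475, minus strand: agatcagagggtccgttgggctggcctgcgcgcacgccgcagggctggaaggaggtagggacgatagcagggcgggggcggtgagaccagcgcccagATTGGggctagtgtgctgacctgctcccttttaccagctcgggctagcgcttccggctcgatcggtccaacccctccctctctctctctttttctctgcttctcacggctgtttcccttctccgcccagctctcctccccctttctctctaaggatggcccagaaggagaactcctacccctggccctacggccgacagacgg
CDC25B, chr20:3786701-3787000, plus strand: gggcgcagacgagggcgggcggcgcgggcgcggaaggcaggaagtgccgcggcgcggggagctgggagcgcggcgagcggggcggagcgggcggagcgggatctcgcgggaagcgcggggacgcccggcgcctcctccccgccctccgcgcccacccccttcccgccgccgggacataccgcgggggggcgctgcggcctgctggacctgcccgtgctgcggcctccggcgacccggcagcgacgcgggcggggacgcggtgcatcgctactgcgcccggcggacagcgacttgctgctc

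CHR letters were found in 37 of the 48 member promoters (77.1%), against 16.6% of all 27305 promoters of this length and 10.9% of the 9527 promoters of genes in the table. In 32 of the 37 the match nearest the start lay between 60 bases before and 50 bases after it. CCAAT letters were found in 35 of 48 (72.9%), against 35.7% of all promoters and 37.1% of those of listed genes, and both motifs stood together in 29 of 48 (60.4%), against 6.58% and 4.74%. The E-box letters bound by MITF and its relatives were searched in the same windows on both strands. CACGTG was found in 6 of 48 members (12.5%, against 7.43% of all promoters and 10.5% of those of listed genes), PLK1 and CENPF among them, and CATGTG in 1 of 48 (2.08%, against 11.2% and 6.71%). These are letter matches in 1 window a gene, and they describe the sequences only.

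Depth was 2568187 to 3714608 reads per library, 1 read was worth 0.278 to 0.389, and 1620 reads was the highest and 3 reads the lowest count of any member in a library. Values are normalised read counts (reads scaled by the effective library size), and changes are differences of log2(value + 1) fitted by limma, with adjusted p-values by Benjamini-Hochberg over all genes and a call at an adjusted p under 0.05. MITF stood at 657, 663 and 708 in the MeWo control libraries and at 451, 354 and 371 with Dox, a fall of 0.79 in log2 units (SE 0.11, adjusted p = 6.49e-05). In SkMel28 it stood at 861, 739 and 792 and 575, 578 and 552, a fall of 0.49 (SE 0.11, adjusted p = 0.00705), lost without a mean-variance trend. All 7 melanocyte markers were in the table, and their summed value with Dox (6465 to 8163 in MeWo, 6597 to 6809 in SkMel28) lay under that without it (13020 to 13210 and 11010 to 12310). None of 3 keratinocyte and 3 endothelial markers was listed. Of the fibroblast markers DCN and LUM were listed, with sums of 41.5 to 47.8 in the MeWo control and 9.85 to 19.2 in the MeWo Dox libraries, and of 10.9 to 13.3 and 6.04 to 8.91 in the same groups of SkMel28. Of the leukocyte markers only CD68, which is also a lysosomal protein, was listed, at 132.5 to 150.6 and 57.4 to 147 in MeWo and at 78.2 to 100.9 and 18.7 to 23 in SkMel28. The part of these marker shifts in the results below was not tested. Replicates correlated at 0.960 to 0.976 across genes in MeWo Dox and at 0.979 to 0.985 in the other groups.

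In SkMel28 the genes of mitosis lay lower with Dox nearly throughout. Of the 55 members 20 fell and none rose (limma), or 36.4%, where 10.9% of all 12616 genes were called, 5.04% lower and 5.88% higher. EdgeR called 23 members lower and DESeq2 22, and neither called one higher. Of all genes edgeR called 11.27% and DESeq2 10.29%. Scaling to the spike-ins left 15 members called, all lower, where 7.35% of all genes were called. Without a mean-variance trend 17 members were called, all lower, and 8.74% of all genes. The changes of 53 members were below 0, or 54 with scaling to the spike-ins. Their median was -0.51 beside 0.00 over all genes, and with scaling to the spike-ins, which moved the median of all genes to -0.08, it was -0.59. Summed over the members, the value went from 3679 ± 88.0 (SD, n = 3) without Dox to 2469 ± 38.3 with it. In 40 members every Dox library lay under every control library (72.7%, where 16.1% of all genes did), and 36 had an unadjusted p under 0.05, all of them lower.

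In MeWo fewer members were called. AURKA, AURKB, BUB3, CCNB1, KIF11, KIF20B, ANLN and PTTG1 fell and none rose by limma, with edgeR and DESeq2 also giving 8 and 0 (1 member was higher at an unadjusted p under 0.05). These 8 of 55 are 14.5%, near the background of 16.7% called in either direction, which was 16.2% by edgeR and 14.8% by DESeq2. All 8 were lower, where 8.12% of all genes were called lower and 8.58% higher. The changes of 46 members were below 0 with a median of -0.22, but with scaling to the spike-ins 27 members were, with a median of 0.01. That scaling moved the median of all genes from 0.00 to 0.22, and relative to it the members stood at -0.21. The same scaling left AURKA and AURKB lower and called CDC25B higher, where 3.04% of all genes were called lower and 16.6% higher. The summed value of the members went from 1807 ± 4.74 (SD, n = 3) to 1491 ± 156, the 3 Dox libraries standing at 1441, 1666 and 1367. Dox replicate 2 held the highest of the 3 Dox values in 28 members and replicate 3 the lowest in 30. In 15 members every Dox library lay under every control library (27.3%, against 14.7% of all genes).

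**Figure D1:**
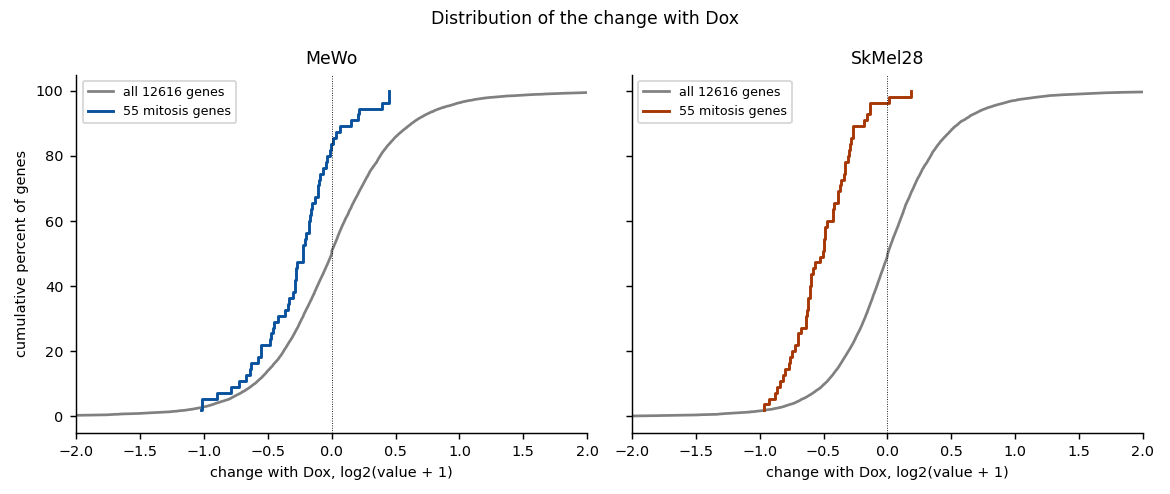
Cumulative percent of genes (vertical axis) against the fitted change with Dox in log2(value + 1) (horizontal axis), for the 55 mitosis genes and all 12616 genes, in MeWo (left) and SkMel28 (right). The members' median lies at -0.22 in MeWo, which scaling to the spike-ins moves to 0.01, and at -0.51 in SkMel28.

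The calls depended on single libraries in both lines. In MeWo the number of members called was 4 without control replicate 1 or control replicate 3, 5 without Dox replicate 3 and 12 without Dox replicate 1, of which CDC25B was higher and 11 lower. In SkMel28 the number of members called was 13 without control replicate 1 or 2, 14 without control replicate 3 or Dox replicate 3, 12 without Dox replicate 2 and 10 without Dox replicate 1. Of all genes 6.21% to 8.27% were called in these settings. It was 27 with MeWo Dox replicate 1 left out, since all 12 libraries set the variance of each gene, and 16.2% of all genes were then called in SkMel28. AURKB in MeWo and AURKA, AURKB, BIRC5, CENPF, TPX2, CIT, TOP2A and NCAPG in SkMel28 were called under each of the 22 alternatives tried.

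**Figure D2:**
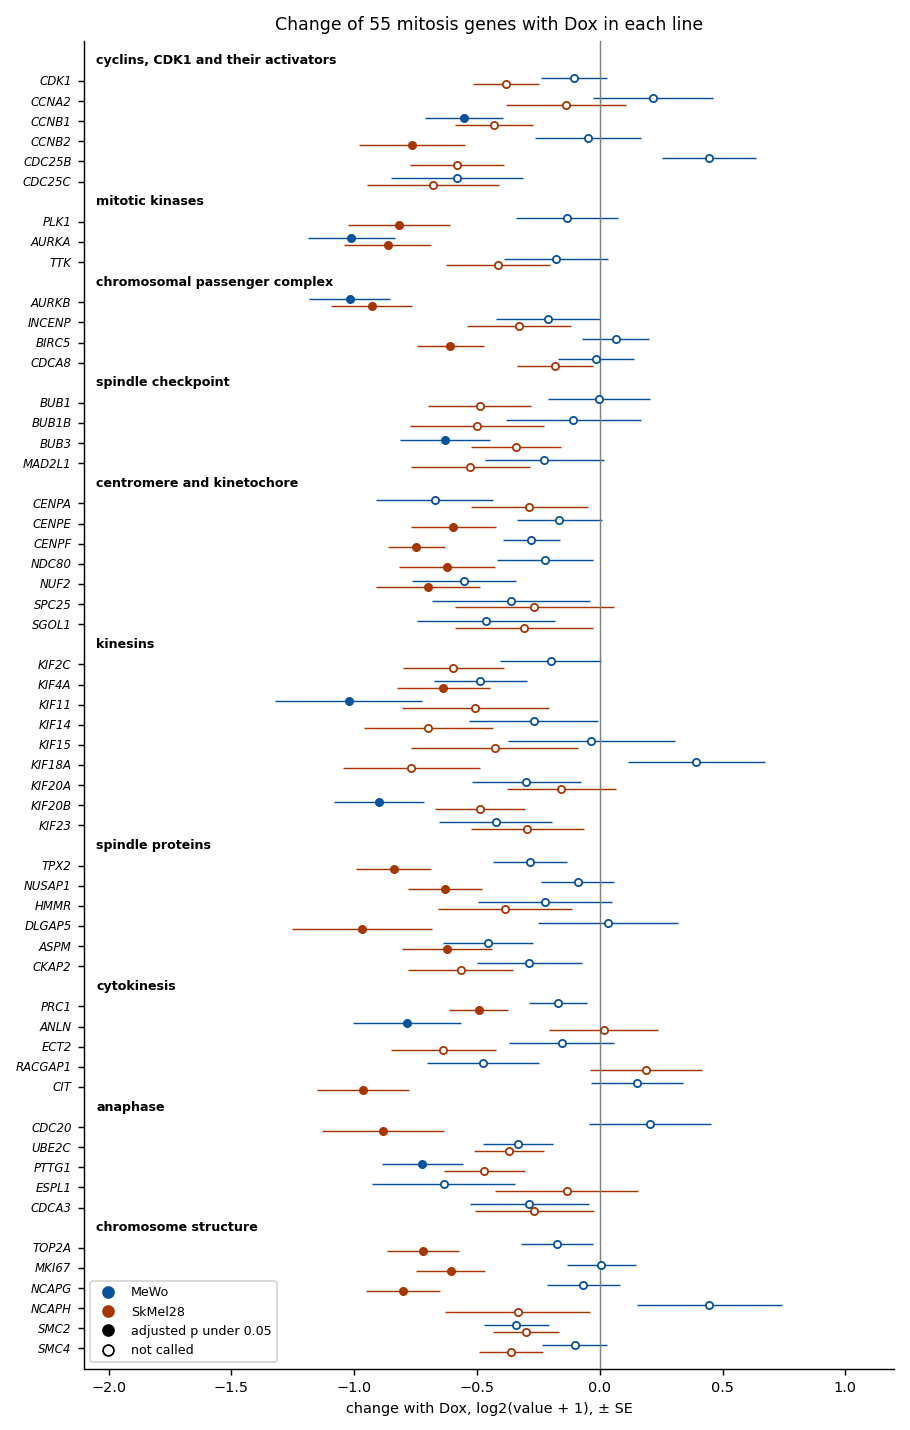
Fitted change with Dox in log2(value + 1) (horizontal axis) with its SE for each of the 55 members, grouped by role, in MeWo (blue) and SkMel28 (red). Filled points are called at an adjusted p under 0.05, and all of the 8 filled points in MeWo and the 20 in SkMel28 lie below 0. With scaling to the spike-ins 3 are called in MeWo, CDC25B among them above 0, and 15 in SkMel28, all below 0.

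Among the 6 cyclins, CDK1 and their activators, CCNB1 was the only member called in MeWo and CCNB2 in SkMel28. CDK1, the kinase that drives entry into mitosis, stood at 50.7, 59.1 and 49.2 without Dox and 52.99, 46.2 and 48.1 with Dox in MeWo, groups that overlap, with a change of -0.11 (SE 0.13, adjusted p = 0.644), not called. In SkMel28 it stood at 102, 102 and 80.5 without Dox and 70.9, 69.5 and 75.8 with Dox. Every SkMel28 Dox library lay under every control library, yet with a change of -0.38 CDK1 missed the call (adjusted p = 0.081). CCNB1, the cyclin B subunit that activates CDK1, stood at 31.4, 23.7 and 29.5 without Dox and 22.02, 17.1 and 17.6 with Dox in MeWo, where it fell by 0.55 in log2 units (SE 0.16, adjusted p = 0.024). That call was lost with scaling to the spike-ins, with each line fitted alone and without MeWo control replicate 1 or 3 or Dox replicate 2 or 3, with adjusted p-values from 0.00319 to 0.346 over the alternatives. In SkMel28 CCNB1 stood at 57.4, 70.8 and 58.2 without Dox and 45.7, 44.8 and 46.5 with Dox, without overlap, and missed the call there too with -0.43 (adjusted p = 0.0984). CCNB2, its close relative, had means of 28.8 ± 3.94 and 29.2 ± 12.2 (SD, n = 3) in MeWo and fell by 0.76 in log2 units (SE 0.22, adjusted p = 0.0298) in SkMel28, from 48.6 ± 1.28 to 28.2 ± 2.20. The SkMel28 call of CCNB2 was lost without any single one of the 6 SkMel28 libraries and also without a mean-variance trend. CCNA2, the cyclin of S phase and early mitosis, had the smallest SkMel28 change in size of these 6, at -0.14 (adjusted p = 0.802).

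CDC25B, a phosphatase that removes the inhibitory phosphates from CDK1, was the 1 of these 6 genes for which the lines were called different in their change. In MeWo it stood at 63.9, 65.7 and 54.7 without Dox and 54.3, 115 and 94.2 with Dox, where 1 Dox library lay under the lowest control library and the other 2 lay above the highest. The change of 0.45 (SE 0.19, adjusted p = 0.124) was not called. In SkMel28 CDC25B stood at 268, 293 and 319.6 without Dox and 183, 196 and 208 with Dox, all 3 Dox libraries lower, with a change of -0.58 (SE 0.19, adjusted p = 0.0633) that missed the call, although edgeR and DESeq2 called it. The changes in the 2 lines differed by 1.03 (SE 0.27, adjusted p = 0.0308), a call lost without a mean-variance trend and with any of 9 libraries left out, the exceptions being MeWo Dox replicate 1, SkMel28 control replicate 1 and SkMel28 Dox replicate 3. CDC25C, the related phosphatase, had changes of -0.58 in MeWo and -0.68 in SkMel28, neither of them called (adjusted p = 0.154 and 0.126), and its locus overlaps FAM53C on the other strand.

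The Aurora kinases were the only members called lower in both lines, although in the main fit 44 of the 55 members had changes below 0 in both. With scaling to the spike-ins 27 members lay below 0 in MeWo and 54 in SkMel28. AURKB, the kinase of the chromosomal passenger complex, which corrects faulty attachments at the centromere, stood at 170.5, 139.9 and 146 without Dox and 86.2, 79.97 and 59.6 with Dox in MeWo. In SkMel28 AURKB stood at 173, 139 and 183 without Dox and 76.9, 75.9 and 107 with Dox. In neither line did the groups overlap, and AURKB fell by 1.02 in log2 units (SE 0.17, adjusted p = 0.000334) in MeWo and by 0.93 (SE 0.17, adjusted p = 0.00114) in SkMel28, so that its mean was 50.5% and 47.5% lower. AURKA, which acts at the centrosomes and spindle poles, stood at 89.6, 81.2 and 75.5 without Dox and 54.9, 40.2 and 29.1 with Dox in MeWo. In SkMel28 AURKA stood at 165, 148 and 189 without Dox and 82.8, 99.6 and 91.6 with Dox. AURKA fell by 1.01 in log2 units (SE 0.18, adjusted p = 0.000678) in MeWo and by 0.86 (SE 0.18, adjusted p = 0.0037) in SkMel28, again without overlap in either line. Its MeWo call was lost with each line fitted alone, the adjusted p-values ranging from 3.17e-06 to 0.057. The changes of AURKB and AURKA in the 2 lines differed by -0.09 and -0.15 (adjusted p = 0.845 and 0.748).

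PLK1, the polo-like kinase of mitotic entry and spindle assembly, stood at 24.5, 17.9 and 18.5 without Dox and 16.3, 26.5 and 13.9 with Dox in MeWo, where Dox replicate 2 was above every control library and the groups overlapped, with a change of -0.13 (SE 0.21, adjusted p = 0.715). In SkMel28 PLK1 stood at 47.9, 43.8 and 42.2 without Dox and 23.2, 25.7 and 25.7 with Dox and fell by 0.82 in log2 units (SE 0.21, adjusted p = 0.0157), with no overlap. This call was lost without SkMel28 control replicate 1 or Dox replicate 1, with adjusted p-values from 0.00272 to 0.0687. TTK, the kinase that starts the spindle checkpoint, had changes of -0.18 and -0.41 in MeWo and SkMel28 (adjusted p = 0.618 and 0.248).

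**Figure D3:**
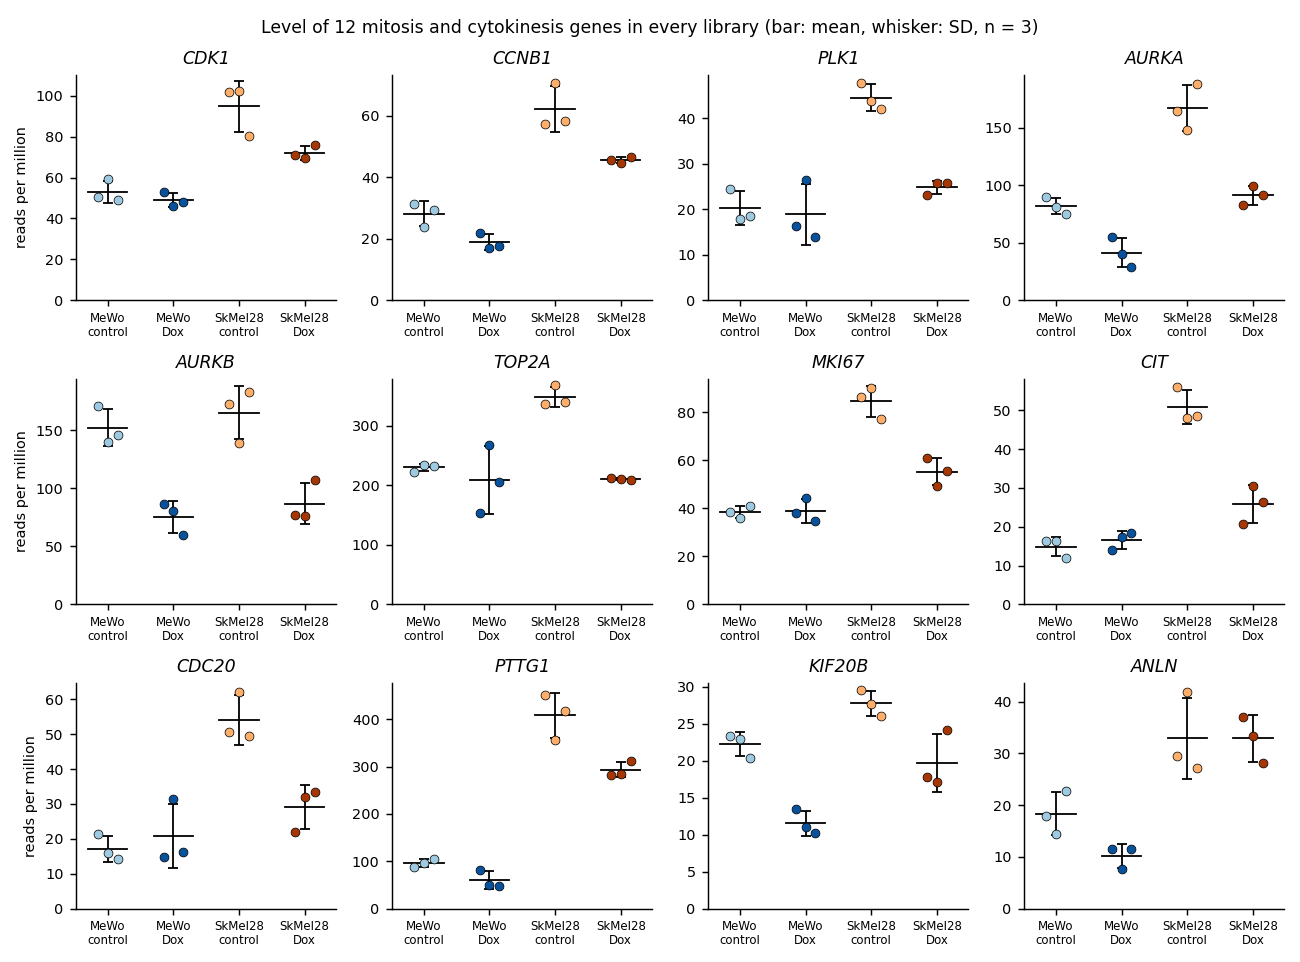
Normalised read count (vertical axis, from 0) of 12 members in each of the 12 libraries, with the mean and SD of the 3 libraries per group. In AURKA, AURKB, CCNB1, PTTG1 and KIF20B every Dox library lies under every control library in both lines, though only AURKA and AURKB are called in both. CDK1, PLK1, TOP2A, MKI67, CIT and CDC20 do so in SkMel28 and overlap in MeWo, while ANLN does so in MeWo and overlaps in SkMel28.

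Of the partners of AURKB in the chromosomal passenger complex only BIRC5 was called with Dox, and only in SkMel28. BIRC5 (survivin), which tethers the complex to the centromere, stood at 115, 115 and 108 without Dox and 95.8, 143 and 119.6 with Dox in MeWo, overlapping groups with a change of 0.06 (SE 0.14, adjusted p = 0.8). In SkMel28 BIRC5 stood at 96.6, 97.4 and 108 without Dox and 68.3, 60.5 and 68.3 with Dox and fell by 0.61 in log2 units (SE 0.14, adjusted p = 0.00709). The changes in the 2 lines differed by 0.67 (SE 0.19, adjusted p = 0.0448), a call lost under 14 of 21 alternatives (with any library but MeWo Dox replicate 1 left out among them). CDCA8 (borealin) and INCENP, the scaffold of the complex, had changes of -0.18 and -0.33 in SkMel28 (adjusted p = 0.535 and 0.381) and of -0.01 and -0.21 in MeWo (adjusted p = 0.972 and 0.539).

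Of the 4 spindle checkpoint genes BUB3, which docks the checkpoint kinases on the kinetochore, was called in MeWo. It went there from 104 ± 2.94 to 69.3 ± 24.01 (SD, n = 3), a fall of 0.63 (adjusted p = 0.0255), and the call was lost with scaling to the spike-ins, without a mean-variance trend, with each line fitted alone and without any MeWo library except Dox replicate 1. In SkMel28 limma, edgeR and DESeq2 each called 0 of the 4, 2 of them having an unadjusted p under 0.05. The SkMel28 changes of the checkpoint genes ranged from -0.53 for MAD2L1, the subunit that binds and inhibits CDC20, to -0.34 for BUB3.

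Among the 7 centromere and kinetochore genes CENPF, CENPE, NDC80 and NUF2 fell in SkMel28. CENPF, a large protein of the outer kinetochore whose RNA peaks in G2 and mitosis, went from 167 ± 16.1 to 98.9 ± 3.91 (SD, n = 3) and fell by 0.75 in log2 units (SE 0.12, adjusted p = 0.000347). The kinetochore motor CENPE fell by 0.60 (adjusted p = 0.034), and NDC80 and NUF2, paired subunits that grip the microtubule, fell by 0.62 and 0.70 (adjusted p = 0.0496 and 0.0416). These 3 calls were lost under 7, 14 and 11 of the 22 alternatives, scaling to the spike-ins among them each time. With 1 library left out CENPE lost its call without SkMel28 control replicate 1 or 3 or SkMel28 Dox replicate 1, 2 or 3, NDC80 without MeWo control replicate 1, 2 or 3 or SkMel28 control replicate 2 or 3 or SkMel28 Dox replicate 1, 2 or 3, and NUF2 without MeWo control replicate 1, 2 or 3 or SkMel28 control replicate 1, 2 or 3 or SkMel28 Dox replicate 3. SPC25, which joins NDC80 and NUF2 in one complex, had a change of -0.27 (adjusted p = 0.691, not called). The 7 changes in MeWo ran from -0.67 for CENPA, the centromeric histone, to -0.16 for CENPE, although with scaling to the spike-ins only 5 of them lay below 0. There limma, edgeR and DESeq2 each called 0 of them, with 3, 3 and 2 at an unadjusted p under 0.05. Reads of NUF2 and RGS5, which overlap on opposite strands, and of CENPA and SLC35F6, which overlap on the same strand, may not be fully separated.

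Among the 9 kinesins KIF11 and KIF20B fell in MeWo and KIF4A in SkMel28. KIF20B, a motor of the late spindle and midbody, stood at 23.3, 22.9 and 20.4 without Dox and 13.4, 10.99 and 10.2 with Dox in MeWo, with no overlap, and fell by 0.90 in log2 units (SE 0.18, adjusted p = 0.00248). That call was lost with scaling to the spike-ins, with adjusted p-values from 0.000525 to 0.0538. KIF20B in SkMel28 stood at 29.5, 27.6 and 26.1 without Dox and 17.8, 17.05 and 24.2 with Dox, without overlap and with a change of -0.49 (SE 0.18, adjusted p = 0.103) that was not called. KIF11 (Eg5), the motor that pushes the spindle poles apart, went from 8.88 ± 0.679 to 4.23 ± 2.42 in MeWo (SD, n = 3), a fall of 1.02 (adjusted p = 0.0265) that was lost without any 1 of the MeWo control libraries, without Dox replicate 3, with scaling to the spike-ins and with each line fitted alone. KIF4A, a chromosome-bound motor, fell by 0.64 in SkMel28 (adjusted p = 0.0379, lost under 9 alternatives, among them without MeWo control replicate 2 or SkMel28 control replicate 1, 2 or 3 or SkMel28 Dox replicate 1, 2 or 3), and its locus overlaps PDZD11 on the other strand. KIF18A, a motor that limits chromosome oscillation, was the lowest member in read count, with means of 1.30 ± 0.137 and 2.04 ± 0.459 in MeWo and 3.22 ± 1.16 and 1.43 ± 0.408 in SkMel28 and no call. The difference between the lines was not called for any kinesin by limma, edgeR or DESeq2, 1 of the 9 having an unadjusted p under 0.05. Scaling to the spike-ins called it for KIF18A (limma, adjusted p = 0.0354), where 12.04% of all genes were called.

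Of the 6 spindle proteins 4 fell in SkMel28, and in MeWo limma, edgeR and DESeq2 each called 0, with 1, 1 and 0 at an unadjusted p under 0.05. TPX2, which activates AURKA on the spindle, had means of 53.5 ± 3.18 and 44.5 ± 10.3 in MeWo and fell by 0.84 in log2 units (SE 0.15, adjusted p = 0.00131) in SkMel28, from 142 ± 7.11 to 79.04 ± 9.17 (SD, n = 3). DLGAP5, a microtubule-binding protein of the spindle also known as HURP, stood at 15.6, 17.1 and 10.7 without Dox and 5.94, 5.35 and 9.67 with Dox in SkMel28, with no overlap, and fell by 0.97 in log2 units (SE 0.29, adjusted p = 0.037), the largest fall in size among the members called there. It rested on 11 to 56 reads per library over all groups, and the call was lost under 7 alternatives, SkMel28 control replicate 1 or 2 and Dox replicate 1 or 2 left out being 4 of them. In MeWo DLGAP5 stood at 4.03, 6.99 and 3.56 without Dox and 3.83, 5.69 and 5.08 with Dox, overlapping groups with a change of 0.03 (adjusted p = 0.964). NUSAP1, which bundles spindle microtubules, and ASPM, which focuses the spindle poles, fell by 0.63 and 0.62 in SkMel28 (adjusted p = 0.0103 and 0.0373). The NUSAP1 call was lost without SkMel28 control replicate 3 or SkMel28 Dox replicate 1. The ASPM call was lost under 9 alternatives. These were scaling to the spike-ins, no mean-variance trend, each line fitted alone, the replicate block, and SkMel28 control replicate 1 or 2 or SkMel28 Dox replicate 1, 2 or 3 left out. NUSAP1 shares its locus with OIP5-AS1 on the same strand.

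Of the 5 cytokinesis genes CIT and PRC1 fell in SkMel28 and ANLN in MeWo. CIT, the citron kinase of the contractile ring and midbody, stood at 16.4, 16.3 and 11.98 without Dox and 14.04, 17.4 and 18.3 with Dox in MeWo, overlapping groups with a change of 0.15 (SE 0.19, adjusted p = 0.636). In SkMel28 CIT stood at 55.96, 47.9 and 48.7 without Dox and 20.8, 30.4 and 26.3 with Dox and fell by 0.96 in log2 units (SE 0.19, adjusted p = 0.00251), the Dox mean being 49.2% lower. The changes in the 2 lines differed by 1.11 (SE 0.27, adjusted p = 0.0178), a call lost without MeWo control replicate 3 or SkMel28 Dox replicate 1. ANLN (anillin), the scaffold of the contractile ring, stood at 17.9, 14.4 and 22.7 without Dox and 11.5, 7.58 and 11.5 with Dox in MeWo and fell by 0.78 in log2 units (SE 0.22, adjusted p = 0.022), without overlap, a call lost without MeWo control replicate 1 or 3 or Dox replicate 2, with scaling to the spike-ins and with each line fitted alone. ANLN stood at 29.5, 41.9 and 27.2 without Dox and 37.1, 33.4 and 28.1 with Dox in SkMel28, overlapping groups with a change of 0.02 (adjusted p = 0.984). The difference between the lines for ANLN, -0.80, was not called (adjusted p = 0.121). PRC1, which bundles the microtubules of the central spindle, stood at 139, 135 and 151 without Dox and 97.7, 105 and 97.6 with Dox in SkMel28 and fell by 0.49 in log2 units (SE 0.12, adjusted p = 0.0125), a call lost on the scale of the spike-ins and without SkMel28 control replicate 3 or SkMel28 Dox replicate 1. Its MeWo values were 44.3, 43.5 and 38.9 without Dox and 39.9, 37.1 and 35.2 with Dox, with a change of -0.17 (adjusted p = 0.365). RACGAP1, the GTPase-activating subunit of centralspindlin, was the member with the most positive change in SkMel28, 0.19 (adjusted p = 0.69).

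Among the 5 genes of anaphase CDC20 fell in SkMel28 and PTTG1 in MeWo. CDC20, the activator through which the checkpoint restrains the anaphase-promoting complex, stood at 50.7, 62.2 and 49.4 without Dox and 21.97, 32.1 and 33.5 with Dox in SkMel28, with no overlap, and fell by 0.88 in log2 units (SE 0.25, adjusted p = 0.0294). The call was lost without a mean-variance trend and without any SkMel28 library except Dox replicate 3. In MeWo CDC20 stood at 21.3, 15.9 and 14.3 without Dox and 14.7, 31.5 and 16.3 with Dox, where Dox replicate 2 was the highest of all 6 and the change of 0.20 (SE 0.25, adjusted p = 0.627) was not called. PTTG1 (securin), the inhibitor of separase, stood at 88.7, 97.1 and 106 without Dox and 82.4, 50.4 and 47.8 with Dox in MeWo and fell by 0.72 in log2 units (SE 0.17, adjusted p = 0.00596), a call lost with scaling to the spike-ins and with each line fitted alone. In SkMel28 PTTG1 stood at 451, 356 and 418 without Dox and 284, 285 and 312 with Dox, all 3 Dox libraries lower, with a change of -0.47 (adjusted p = 0.082, not called). UBE2C, the ubiquitin-conjugating enzyme of the complex, had changes of -0.33 and -0.37 in MeWo and SkMel28, with no overlap in either line and no call (adjusted p = 0.119 and 0.113).

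TOP2A, MKI67 and NCAPG, of the 6 genes of chromosome structure, fell in SkMel28, and in MeWo limma, edgeR and DESeq2 each called 0, with 1, 1 and 0 at an unadjusted p under 0.05. TOP2A, the topoisomerase that untangles sister chromatids, stood at 336, 368 and 339.9 without Dox and 212, 211 and 209 with Dox in SkMel28 and fell by 0.72 in log2 units (SE 0.15, adjusted p = 0.00353). In MeWo TOP2A stood at 223, 234 and 232 without Dox and 153, 268 and 205 with Dox, where Dox replicate 2 was the highest of all 6 libraries and Dox replicate 1 the lowest (change -0.17, adjusted p = 0.457). MKI67, the antigen Ki-67, which coats mitotic chromosomes and marks cycling cells in pathology, stood at 86.3, 90.1 and 77.4 without Dox and 60.9, 49.5 and 55.6 with Dox in SkMel28 and fell by 0.61 in log2 units (SE 0.14, adjusted p = 0.00853), a call lost without Dox replicate 2. In MeWo it stood at 38.6, 36.1 and 41.1 without Dox and 37.98, 44.3 and 34.5 with Dox, overlapping groups with a change of 0.01 (adjusted p = 0.99). NCAPG, a subunit of condensin I, stood at 55.4, 53.6 and 63.2 without Dox and 35.6, 32.4 and 29.6 with Dox in SkMel28 and fell by 0.80 in log2 units (SE 0.15, adjusted p = 0.00187). NCAPG in MeWo stood at 23.3, 23.3 and 26.2 without Dox and 20.7, 23.1 and 25.7 with Dox, with overlap and a change of -0.07 (adjusted p = 0.815). For NCAPG the 2 lines differed by 0.73 (SE 0.21, adjusted p = 0.046), a call lost under 16 of 21 alternatives (with any library but MeWo Dox replicate 1 left out among them). The NCAPG locus overlaps LCORL on the other strand. SMC2, SMC4 and NCAPH, the other condensin subunits among the members, were called in neither line.

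The other 29 members were called in neither line. Their changes ran from -0.67 (CENPA) to 0.45 (CDC25B) in MeWo and from -0.77 (KIF18A) to 0.19 (RACGAP1) in SkMel28. CDK1, CDC25B, KIF2C, a kinesin that depolymerises microtubules, KIF18A, ECT2, the exchange factor that activates RhoA at the cleavage site, and SMC4 had an adjusted p under 0.1 in SkMel28, 0.0758 for KIF2C and 0.0668 for ECT2. Changes in SkMel28 of -0.49 for BUB1 and -0.50 for BUB1B, the checkpoint kinase and its relative BUBR1, -0.27 for CDCA3, a trigger of mitotic entry, -0.57 for CKAP2, a spindle-associated protein, -0.13 for ESPL1 (separase), which cleaves cohesin, and -0.31 for SGOL1 were not called. Among the remaining kinesins KIF14, KIF15, KIF20A and KIF23 had SkMel28 changes of -0.70, -0.43, -0.16 and -0.29. KIF15 and TMEM42 overlap on the same strand, and KIF20A overlaps BRD8 and CDC23 on the other strand.

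Whether the lines differed in the change with Dox was tested as an interaction, MeWo minus SkMel28. Of the 55 members 4 were called (7.27%, where 7.09% of all genes were), namely CIT, CDC25B, NCAPG and BIRC5, each with a more positive change in MeWo, where 3.71% of all genes were called in that direction and 3.38% in the other. The share called in either direction is near the background, while the share called more positive, resting on 4 members, is above the 3.71% of all genes. EdgeR called 3 members and DESeq2 5, where they called 6.39% and 7.79% of all genes. None of the 4 was kept under all 21 alternatives. Without a single library the number called was 0 (MeWo control replicate 3 or SkMel28 Dox replicate 1) or 1 or 2 (9 other libraries). Of all genes 3.56% to 5.93% were called in these settings. Without MeWo Dox replicate 1 the number was 13, of which 10 were more positive and 3 more negative in MeWo. In that setting 24.7% of all genes were called, 12.78% more positive and 11.91% more negative. Scaling to the spike-ins also gave 13, all more positive in MeWo. With that scaling 12.04% of all genes were called, 10.78% more positive and 1.26% more negative. CIT was called in 19 of the 21. The change was further below in SkMel28 for 38 members and further below in MeWo for 17. Over the 55 members the changes in the 2 lines correlated at r = -0.15, where they correlated at 0.26 over all genes, genes measured in the same libraries and given as a description. AURKA and AURKB were called in both lines, 2 of the 8 called in MeWo (25%) and 2 of the 20 called in SkMel28 (10%). Over all genes 515 were called in both lines, which is 24.4% of the 2107 called in MeWo and 37.4% of the 1378 called in SkMel28.

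Without Dox the members stood higher in SkMel28 than in MeWo. Of the 55 members 42 were higher and 1 lower (limma), where 51.4% of all genes were called, 26.6% higher and 24.8% lower. With scaling to the spike-ins 43 were higher and none lower, where 28.77% of all genes were called higher and 17.68% lower. The median difference was 0.89 beside 0.00 over all genes, or 0.90 relative to all genes with scaling to the spike-ins. The summed value was 1807 in MeWo control and 3679 in SkMel28 control. The largest difference in size was that of CDC25B, whose mean was 4.78 times as high, a difference of 2.24 (SE 0.19, adjusted p = 3.63e-08). HMMR, a spindle and hyaluronan-binding protein, stood at 3.17, 4.66 and 4.86 in MeWo and 23.7, 27.9 and 18.01 in SkMel28 without Dox, a difference of 2.21 (SE 0.27, adjusted p = 3.26e-06). PTTG1 differed by 2.06 (SE 0.17, adjusted p = 1.54e-08), PRC1 by 1.72 (SE 0.12, adjusted p = 2.39e-09) and CIT by 1.71 (SE 0.19, adjusted p = 7.3e-07), and in all 5 genes the control groups did not overlap.

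INCENP was the member that went the other way, at 18.7, 18.3 and 24.6 in MeWo and 12.3, 10.5 and 16.5 in SkMel28, a difference of -0.62 (SE 0.21, adjusted p = 0.0206) that was lost with scaling to the spike-ins, with the replicate block and without MeWo control replicate 3 or SkMel28 control replicate 1 or 2. AURKB and BIRC5, its partners, were among the 12 members whose difference between the lines was not called, with differences of 0.11 and -0.16 (adjusted p = 0.597 and 0.339). The 7 centromere and kinetochore genes and the 6 of chromosome structure were all called higher in SkMel28. Of the 9 kinesins 4 were called higher, although all 9 differences lay above 0. Even with Dox the level in SkMel28 stayed above that of untreated MeWo for most members. The SkMel28 Dox mean exceeded the MeWo control mean in 43 members (78.2%, where it did in 50.6% of all genes), and in 30 members every SkMel28 Dox library lay above every MeWo control library (54.5%, against 32.6% of all genes).

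**Figure D4:**
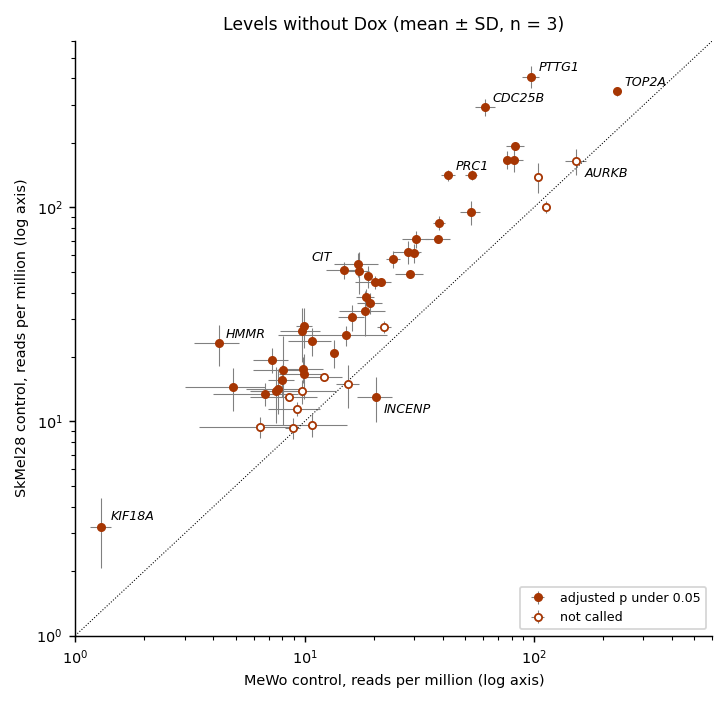
Mean normalised read count without Dox of the 55 members in MeWo (horizontal axis, log scale) and SkMel28 (vertical axis, log scale), with the SD of 3 libraries. Filled points are called at an adjusted p under 0.05, and all but INCENP, whose call scaling to the spike-ins removed, lie above the dotted line of equal levels.

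Further lists, 6 in all, cover the neighbouring machinery. Of all genes 8.12% were called lower and 8.58% higher in MeWo, and 5.04% lower and 5.88% higher in SkMel28. With scaling to the spike-ins the shares lower and higher were 3.04% and 16.6% in MeWo and 4.2% and 3.1% in SkMel28. Of 30 other kinetochore and centromere genes 5 fell and none rose in SkMel28 (median -0.40), CENPI -1.28 (adjusted p = 0.0487) and ZWILCH -0.75 (adjusted p = 0.00667) among them, and ZWINT, which recruits checkpoint proteins, fell in MeWo (-0.65, adjusted p = 0.0449). The MeWo median of this list was -0.12, or 0.13 with scaling to the spike-ins, under which 2 of the 30 were called higher and none lower. Of 31 other spindle, centrosome and cytokinesis genes 5 fell and KIF2A rose in MeWo (median -0.15, or 0.08 with scaling to the spike-ins, under which 2 were lower and 3 higher), FAM83D, which brings casein kinase to the spindle, showing the largest fall, -1.05 (adjusted p = 0.00587). In SkMel28 limma called 0 of these 31, with a median of -0.40 and 8 at an unadjusted p under 0.05, while edgeR called 3 and DESeq2 1. Of 29 genes of the anaphase-promoting complex, cohesin and further condensins 1 fell in SkMel28, NCAPH2 -0.66 (adjusted p = 0.0137), and in MeWo 2 rose and 1 fell, CDC16 -0.97 (adjusted p = 0.00281), a subunit of the complex (3 and 1 with scaling to the spike-ins).

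Of the regulators that time the mitotic genes limma called 5.26% in MeWo and 0% in SkMel28, where 16.7% and 10.9% of all genes were called, on a list of only 19 genes. Of 19 DREAM, E2F and FOXM1 genes limma called TFDP1, the partner of the E2F factors, lower in MeWo (-0.68, adjusted p = 0.0487, not called by edgeR, DESeq2 or with scaling to the spike-ins, which called 2 higher) and 0 in SkMel28, with 5 at an unadjusted p under 0.05 and 1 called by edgeR and by DESeq2. Of 43 genes of DNA replication and S phase 11 fell and none rose in SkMel28 (25.6%, median -0.41), the largest fall being that of POLD1, the catalytic subunit of polymerase delta (-1.18, adjusted p = 0.00796), and 3 fell in MeWo, GINS1 -0.94 (adjusted p = 0.0219) among them. The MeWo median of the S phase genes was -0.04, or 0.21 with scaling to the spike-ins, under which 1 was called higher and none lower. Of 16 G1 cyclins, kinases and CDK inhibitors 5 rose and 3 fell in MeWo and 3 rose and 2 fell in SkMel28, or with scaling to the spike-ins 6 and 2 and 1 and 2. CCND3, a D-type cyclin, rose by 1.46 in MeWo (adjusted p = 4.94e-05) and the CDK inhibitor CDKN1C rose in both lines, by 1.08 and 0.80 (adjusted p = 0.000185 and 0.00354). CDK2, the kinase of S phase, fell by 1.33 in SkMel28 and by 1.43 in MeWo (adjusted p = 0.000172 and 5.26e-05). CDK2 stood at 2927 to 2940.0 in MeWo without Dox, above every member in any library. Its locus lies inside that of PMEL, a melanocyte gene on the other strand, and the strand used for counting is not given in the sources used here.

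The promoter letters were set beside the calls as a description. CHR letters were found in 15 of the 17 members with a window that fell in SkMel28 (88.2%) and in 22 of the 31 that were not called there (71%). In MeWo they were found in 3 of the 6 called members with a window. The others, AURKB, CCNB1 and PTTG1, had CCAAT letters without CHR letters. CDC25B, whose MeWo change was above 0 but not called, had neither. The same held for CDC25C, CENPE, CKAP2 and KIF2C, whose MeWo changes were below 0. Of the further members above 0 in MeWo, KIF18A, DLGAP5, CIT, CDC20 and MKI67 carried both motifs, and CCNA2 and NCAPH carried CCAAT letters only. CCAAT letters were found in 13 of the 17 called in SkMel28 (76.5%) and in 22 of the 31 not called (71%), and CACGTG in 3 of 17 (17.6%) and 3 of 31 (9.68%).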

How the data were processed

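RNA of 12 libraries (4 groups of 3) was sequenced by the 3′ end method QuantSeq. As deposited, the values are a normalised signal, reads that the authors scaled by an effective library size from edgeR. The submitters' processing notes name FastQC 0.11.7, cutadapt 2.8, STAR 2.5.1b and edgeR and the build hg38, while the counting tool, annotation and strand setting are not given in the sources used here. Genes of low value were left out of the table, which lists 12683 features, 67 of them spike-ins. A 3′ end read count does not scale with transcript length, and levels of different genes were not compared by length. Every value is a whole number of reads within 0.01 read, and these recovered reads were used for the edgeR and DESeq2 alternatives. Of the 55 members 11 overlap another listed gene, so that their reads may be shared, and all but KIF18A reach 5 in at least 3 libraries.

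The main test was limma 3.58.1 (R 4.3.3) with a mean-variance trend on log2(value + 1), fitted to all 12616 genes and 12 libraries with 1 mean per group, with two-sided p-values adjusted by Benjamini-Hochberg over all genes and called under 0.05. The pseudocount understates changes of low genes. Changes are Dox minus control, the difference between the lines is MeWo minus SkMel28, and the lines are compared as SkMel28 control minus MeWo control. The alternatives, 22 in all, were edgeR 4.0.16, DESeq2 1.42.0, scaling to the spike-ins or the upper quartile, pseudocounts of 0.1 and 5, a filter of 5 in 3 libraries, no trend, each line alone, a replicate block within the line, and each of 12 libraries left out. The scripts were tested on simulated data. Values in each library are given for MITF, CDK1, CCNB1, PLK1, AURKB, MKI67 and TOP2A, and per comparison for up to 5 called members of largest change whose higher group mean was at least 10. CDC25B, BIRC5 and NCAPG come from the difference between the lines, and other members are given by means, counts and ranges. Values of further list genes beyond the one of largest change, CDKN1C and ZWILCH among them, were chosen after their values were seen. The members and the lists were chosen with earlier results of these data known. Precision is limited by depth, as 3 reads are worth 0.835 to 1.17.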

Additional observations from a re-analysis of the deposited data

Results flagged for a closer look

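The change with Dox differed between the lines, by a test of the difference itself (limma, adjusted over all genes), for 4 of 55 members (7.27%). That share is near the 7.09% of all genes called in either direction. All 4 were more positive in MeWo, where 3.71% of all genes were called in that direction. CIT differed by 1.113 on the log2 scale (adjusted p = 0.0178), with all 3 SkMel28 Dox libraries under the controls and overlapping groups in MeWo. The call was lost without MeWo control replicate 3 and without SkMel28 Dox replicate 1, and adjusted p-values over the alternatives were 0.00194 to 0.0599. CDC25B differed by 1.026 (adjusted p = 0.0308), lower in 3 of 3 SkMel28 Dox libraries and above every control library in 2 of 3 MeWo Dox libraries. It was lost under 10 of 21 alternatives (adjusted p 1.47e-05 to 0.0902). NCAPG differed by 0.7339 (adjusted p = 0.046, 0.0074 to 0.114 over the alternatives, lost under 16), and BIRC5 by 0.6739 (adjusted p = 0.0448, 0.000852 to 0.117 over the alternatives, lost under 14). Of these 4, NCAPG and BIRC5 had MeWo changes of -0.07 and 0.06 beside -0.80 and -0.61 in SkMel28.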

How the results depend on the processing

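No member called in any of the 4 comparisons reversed under an alternative. Of the calls, 1 of 8 in MeWo, 8 of 20 in SkMel28, 0 of 4 for the difference between the lines and 30 of 43 between the untreated lines were kept under all alternatives run. In MeWo 3 members were called with scaling to the spike-ins (2 lower, 1 higher), where 19.66% of all genes were. With each line fitted alone 2 members and 6.44% of all genes were called in MeWo. For the difference between the lines 13 members were called with scaling to the spike-ins, 2 with a pseudocount of 0.1, 1 without a mean-variance trend and 2 with the replicate block. Of all genes 12.04%, 5.07%, 4.39% and 5.08% were called in these settings. With 1 library left out at a time the number of members called was 4 to 12 in MeWo, 10 to 27 in SkMel28, 0 to 13 for the difference between the lines and 37 to 44 between the untreated lines. In the same order, 10.2% to 31.0%, 6.21% to 16.2%, 3.56% to 24.7% and 45.1% to 56.6% of all genes were called. Over all 12616 genes 2107 were called in MeWo, but 813 with each line fitted alone and 3913 without MeWo Dox replicate 1, and in SkMel28 1378, against 784 to 2042 with 1 library left out. The cause of these shifts was not tested. Control and Dox libraries share replicate numbers, but the deviations of libraries with the same number correlated at -0.181 to 0.159 and not every library correlated best with its own number, so that the numbers were not taken to pair the libraries. With the replicate block 15 members were called in SkMel28 and 33 between the untreated lines, where 8.48% and 34.25% of all genes were. Depth limits the members of few reads, such as KIF18A with 3 to 13 and DLGAP5 with 11 to 56 reads a library.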
